A study of Homo sapiens with 12 samples.

Results

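Transcripts of 58 genes that act at the G2/M transition and in mitosis were followed in 22Rv1, a human prostate cancer cell line, labelled wild type in every group. The genes were taken by symbol from a list of mitotic kinases, cyclins, kinesins, kinetochore, condensin, spindle and cytokinesis genes and genes of the anaphase-promoting complex route. That list was chosen with earlier results of these data known. All 58 were found among the 18668 genes of the deposited table, and all 58 were among the 17702 genes tested. The cells had been exposed for 24 h to a degrader, to the prostate cancer drug enzalutamide, to an autophagy-activating ligand or to vehicle. By its label, the degrader targets the androgen receptor. Each of the 4 groups had 3 libraries. The labels call the triplicates biologically independent and give no doses, so the compounds were not compared at doses known to match, and 1 cell line stands behind every value.

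The libraries held between 55.55 and 77.21 M reads on genes, and no member had fewer than 441 reads in any library. As a check of the label, 9 luminal and epithelial prostate markers, EPCAM, KRT8 and KRT18 among them, were all detected in every group. Their summed level was taken in reads scaled to library size (CPM), here from each library's total reads without edgeR's further scaling. It was 1851 to 1903 CPM with the degrader, 2048 to 2132 CPM with enzalutamide, 2279 to 2368 CPM with the ligand and 2374 to 2473 CPM with vehicle. By edgeR at an adjusted p under 0.05, 6 of the 9 fell with the degrader and none rose, where 16.4% of the genes tested fell. The smallest p belonged to KLK2, KLK3 and STEAP1, with log2 fold changes of -1.09, -0.92 and -0.49. With enzalutamide 4 of the 9 fell, where 1.09% of the genes tested did, and with the ligand 1 fell, where 0.0339% did. The part of these markers in the results below was not tested. Of 12 markers of basal, stromal, endothelial, immune and neuroendocrine cells, 6 were tested here and none was called with the degrader (by edgeR 1 had an unadjusted p under 0.05, and leaving out each library in turn gave 0 to 1 calls). The level summed in the same way over those of the 12 present in the deposited table was 104.2 to 120.2 CPM with the degrader and 110.4 to 119.9 CPM with enzalutamide. It was 108.7 to 118.4 CPM with the ligand and 105.7 to 119.3 CPM with vehicle, most of it from SYP.

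Entry into mitosis is driven by the kinase CDK1 bound to cyclins A and B, with Polo and Aurora kinases acting beside it, and exit follows when the anaphase-promoting complex (APC/C) marks cyclin B and securin for destruction. Most genes of this programme are switched on late in the cell cycle, by complexes of the MuvB core with B-MYB and FOXM1, and are held silent in resting cells by the DREAM complex. Their transcripts therefore serve as markers of dividing cells. In RNA from whole cultures, a smaller fraction of cells in G2 and mitosis and less of these transcripts in each such cell cannot be told apart.

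The comparison of degrader with vehicle asked how the degrader altered these transcripts. Of the 58 genes, 57 fell with the degrader and none rose, by edgeR at an adjusted p under 0.05 over all genes tested, while 16.4% of the genes tested were called lower and 16.4% higher. The median log2 fold change was -0.63, with a middle range of -0.74 to -0.56, against 0.01 over all genes tested. A typical member was thus left at 64.7% of its vehicle level, and the members spread from 50.6% for PLK1 to 88.5% for CDC25B. In 57 of 58 members the 3 degrader libraries all lay below the 3 vehicle libraries, where 22.1% of the genes tested did so and 23.1% lay wholly above. Together the 58 genes took 0.519 ± 0.0253% of all reads with the degrader, 0.773 ± 0.032% with enzalutamide, 0.733 ± 0.0219% with the ligand and 0.791 ± 0.0251% with vehicle (mean ± SD, n = 3). The authors' deposited table likewise gave 57 members an adjusted p under 0.05 and a lower value with the degrader.

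**Figure D1:**
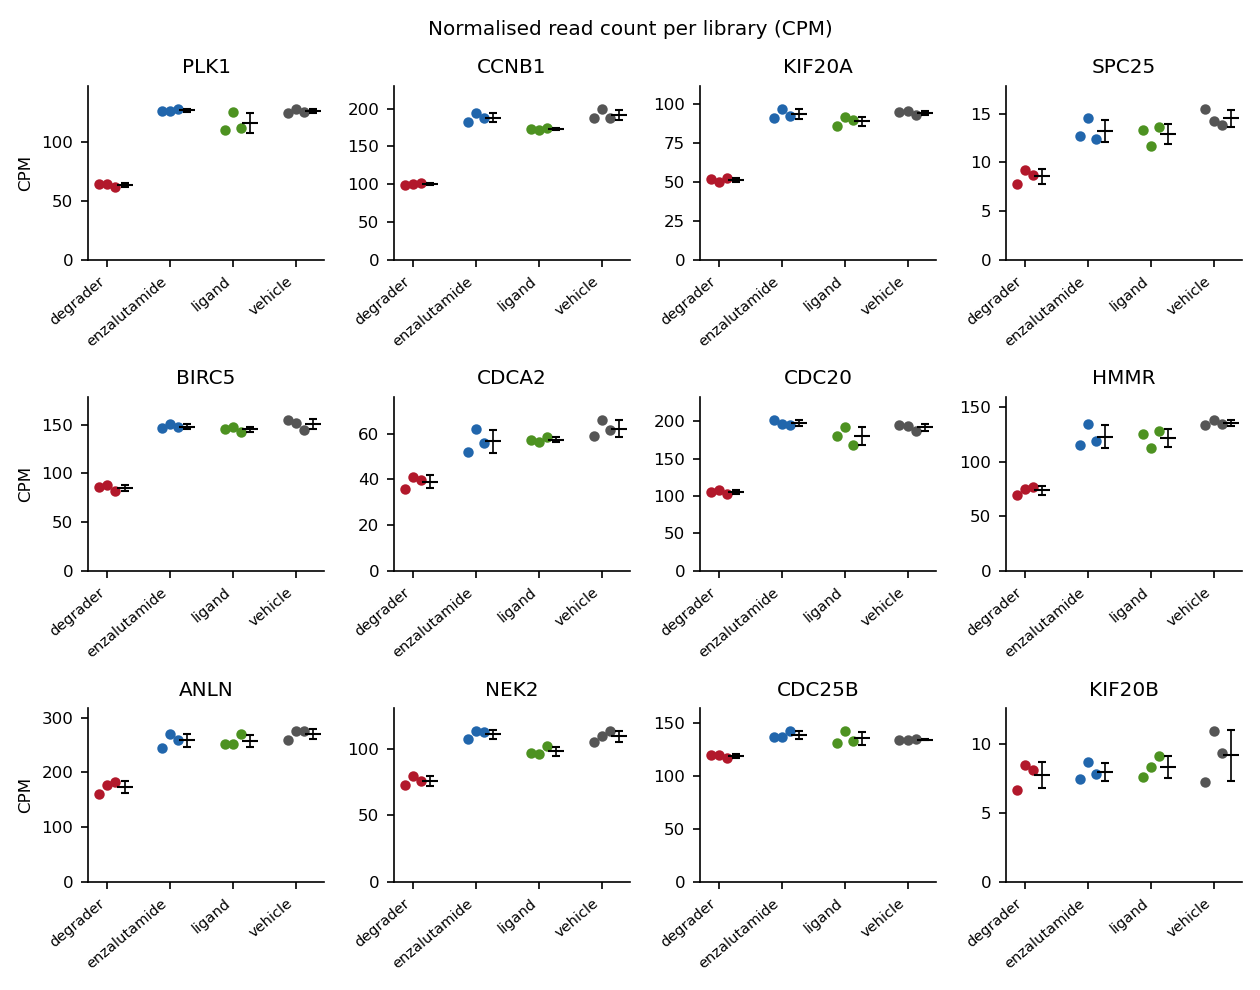
Normalised read count (edgeR CPM, vertical axis from 0) of 12 mitotic genes in each of the 12 libraries, with points for libraries and the mean with its SD beside them, n = 3 per group. In every panel but that of KIF20B the degrader points lie below all vehicle points; PLK1 stood at 63.6 CPM on average with the degrader and 125.8 CPM with vehicle.

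The kinases that start and time mitosis fell in 8 of 8 cases, with a median log2 fold change of -0.61. PLK1, the Polo-like kinase of mitotic entry and spindle assembly, stood at 64.4, 64.6 and 61.7 CPM in the 3 degrader libraries, at 126, 126 and 128 CPM with enzalutamide, at 110.2, 125 and 112 CPM with the ligand and at 124, 128 and 125 CPM with vehicle. The degrader libraries were about level with each other and far below the other 9, and the ligand libraries overlapped vehicle but lay below all enzalutamide libraries. PLK1 averaged 63.6 ± 1.59 CPM with the degrader and 126 ± 1.67 CPM with vehicle (SD, n = 3 each; log2 fold change -0.98, SE 0.05, adjusted p = 5.42e-10), the deepest fall of the 58. AURKA, the Aurora kinase of centrosomes and spindle poles, followed at -0.81 and AURKB, the kinase of the chromosomal passenger complex, at -0.59. The checkpoint kinases, which delay anaphase until chromosomes are attached, were BUB1 at -0.71, BUB1B at -0.63 and TTK at -0.58. CDK1 itself fell by 0.59 on the log2 scale. The smallest fall among the kinases was that of NEK2, which separates centrosomes, at 72.4, 79.8 and 75.6 CPM with the degrader, 107, 114 and 112 CPM with enzalutamide, 96.6, 95.7 and 102 CPM with the ligand, and 105, 109.7 and 113 CPM with vehicle. Its degrader libraries were again the lowest of all (log2 fold change -0.52, SE 0.05, adjusted p = 7.51e-07), and its ligand libraries lay below all vehicle libraries.

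Cyclins and other factors of mitotic entry fell in 7 of 7 cases (median -0.65), and they held both a deep and the shallowest called fall. CCNB1, the gene of cyclin B1, stood at 98.8, 100.5 and 102 CPM in the 3 degrader libraries, at 183, 194 and 187 CPM with enzalutamide, at 174, 172 and 174 CPM with the ligand and at 188, 200.02 and 187 CPM with vehicle. The degrader values were tight and stood far below the others, and the 3 ligand values lay below all vehicle and all enzalutamide values. CCNB1 had a log2 fold change -0.93, SE 0.04, adjusted p = 1.19e-10, with means of 100.4 ± 1.49 CPM with the degrader and 192 ± 7.22 CPM with vehicle. Cyclin A2 (CCNA2, -0.82), cyclin B2 (CCNB2, -0.68) and CKS2, a small subunit that binds CDK1 (-0.65), fell too. FOXM1, a transcription factor that activates many of these genes, fell less, by 0.33 (95% confidence interval -0.42 to -0.24). CDC25B, a phosphatase that activates CDK1, had 120.1, 119 and 117 CPM with the degrader, 137, 136 and 143 CPM with enzalutamide, 131, 142 and 133 CPM with the ligand, and 134, 134 and 135 CPM with vehicle. Its degrader libraries sat just below the rest with no overlap (log2 fold change -0.18, SE 0.04, adjusted p = 0.00472), while CDC25C, the related phosphatase, fell by 0.35. The 95% intervals of CDC25B (-0.27 to -0.09) and of PLK1 (-1.09 to -0.88) were far apart.

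Kinesins, the motor proteins that move along spindle microtubules, fell in 8 of 9 cases (median -0.61). The 3 degrader libraries held 51.8, 50.2 and 52.4 CPM of KIF20A, a motor needed for cytokinesis, against 91.4, 97.3 and 92.5 with enzalutamide, 85.99, 91.8 and 89.7 with the ligand and 95.1, 95.8 and 93.1 with vehicle. The degrader libraries stood below the other 9, and the ligand libraries lay below all vehicle libraries but overlapped enzalutamide (log2 fold change -0.88, SE 0.05, adjusted p = 6.79e-10). The falls of the others were 0.74 for KIF18A, which dampens chromosome movement, 0.67 for KIF14, 0.65 for the chromokinesin KIF4A, 0.61 for KIF23 of the central spindle, 0.61 for KIF11, the motor that pushes spindle poles apart, 0.54 for the microtubule depolymerase KIF2C and 0.53 for KIF18B. KIF20B was the 1 member of the 58 that did not pass. KIF20B, a relative of KIF20A that also acts in cytokinesis, stood at 6.68, 8.53 and 8.13 CPM in the 3 degrader libraries, at 7.46, 8.75 and 7.88 CPM with enzalutamide, at 7.61, 8.33 and 9.16 CPM with the ligand and at 7.26, 11.01 and 9.37 CPM with vehicle. Vehicle replicate 1 was lower than 2 of the 3 degrader libraries, so the groups overlapped. Its log2 fold change was -0.24 (95% confidence interval -0.52 to 0.04, adjusted p = 0.174), and without vehicle replicate 1 it was -0.39 (adjusted p = 0.0201). In the authors' deposited table its adjusted p was 0.144. It was also the least abundant member, at 2.97 TPM with vehicle against a median of 69.2 TPM, as deposited, a scale that corrects for transcript length.

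Kinetochore and centromere genes, whose proteins join chromosomes to the spindle, fell in 8 of 8 cases (median -0.69). SPC25, a subunit of the NDC80 complex, had 7.76, 9.22 and 8.69 CPM with the degrader, 12.8, 14.5 and 12.4 CPM with enzalutamide, 13.4, 11.7 and 13.7 CPM with the ligand, and 15.5, 14.3 and 13.8 CPM with vehicle. The highest degrader library lay below the lowest vehicle library, the ligand libraries lay between those groups, and enzalutamide overlapped both ligand and vehicle (log2 fold change -0.77, SE 0.09, adjusted p = 5.87e-06). Its partners NDC80 (-0.73) and NUF2 (-0.61) fell with it, as did the kinesin motor of kinetochores CENPE (-0.77), CENPF (-0.67), HJURP, the chaperone that loads the centromere histone (-0.70), and the checkpoint gene MAD2L1 (-0.55). The 3 degrader libraries held 10.9, 12.001 and 12.2 CPM of CENPA, which encodes that centromere histone, against 15.2, 17.5 and 15.7 with enzalutamide, 15.3, 16.02 and 16.5 with the ligand and 17.05, 16.1 and 14.7 with vehicle. Its degrader libraries were the lowest 3, at the smallest fall of this group (log2 fold change -0.45, SE 0.08, adjusted p = 0.000282). The chromosomal passenger complex, which corrects wrong attachments, lost transcripts of all 3 of its members listed beside AURKB. BIRC5, the gene of survivin, stood at 86.4, 87.6 and 81.9 CPM in the 3 degrader libraries, at 146, 151 and 147 CPM with enzalutamide, at 146, 147 and 142 CPM with the ligand and at 155, 152 and 144 CPM with vehicle. Degrader libraries were below all others and the other groups overlapped (log2 fold change -0.82, SE 0.04, adjusted p = 9.96e-10). CDCA8, which encodes borealin, was at -0.59. INCENP, the scaffold of the complex, had 72.7, 74.4 and 69.4 CPM with the degrader, 109, 112 and 110.3 CPM with enzalutamide, 95.2, 110.3 and 102 CPM with the ligand, and 106, 106 and 107 CPM with vehicle. The degrader libraries stood below the other 9, and the enzalutamide libraries lay above all vehicle libraries (log2 fold change -0.56, SE 0.05, adjusted p = 5.24e-07).

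Genes of chromosome structure fell in 6 of 6 cases (median -0.61). The 3 degrader libraries held 35.7, 41.3 and 39.8 CPM of CDCA2, which brings a phosphatase to chromosomes at mitotic exit, against 52.1, 62.2 and 55.8 with enzalutamide, 57.5, 56.3 and 58.4 with the ligand and 58.96, 66.2 and 61.5 with vehicle. The degrader libraries lay below the rest (log2 fold change -0.68, SE 0.07, adjusted p = 1.47e-06). TOP2A, the topoisomerase that untangles sister chromatids, fell by 0.64, MKI67, the gene of the proliferation marker Ki-67, by 0.59, and the condensin I subunits NCAPH and NCAPG by 0.62 and 0.56. SMC4, the condensin ATPase subunit, stood at 109, 129 and 124 CPM in the 3 degrader libraries, at 128, 162 and 150.3 CPM with enzalutamide, at 136, 135 and 159.9 CPM with the ligand and at 144, 168 and 162 CPM with vehicle. Its degrader libraries were below all vehicle libraries but overlapped the lowest enzalutamide library (log2 fold change -0.39, SE 0.09, adjusted p = 0.00503).

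On the APC/C route, 6 of 6 genes fell (median -0.68). CDC20, the activator of the APC/C at anaphase, had 105, 108 and 102 CPM with the degrader, 202, 197 and 195 CPM with enzalutamide, 181, 192 and 168 CPM with the ligand, and 195, 194 and 187 CPM with vehicle. The degrader libraries were close together, well below the rest (log2 fold change -0.87, SE 0.05, adjusted p = 1.6e-09). UBE2C, the ubiquitin-conjugating enzyme that works with the APC/C, fell by 0.73, PTTG1, the gene of securin, by 0.85, and CDCA3, a factor that promotes mitotic entry, by 0.63. PTTG1 has near-identical intronless copies, and how the authors' counting shared reads with them is not given in the sources used here. ESPL1, the gene of separase, which cuts cohesin, stood at 90.2, 90.9 and 86.97 CPM in the 3 degrader libraries, at 124, 129 and 134 CPM with enzalutamide, at 110.4, 123 and 119 CPM with the ligand and at 124, 127 and 128 CPM with vehicle. Its groups with and without the degrader did not overlap (log2 fold change -0.50, SE 0.05, adjusted p = 9.06e-07). UBE2S, the second such enzyme, fell by 0.50 with the largest spread between replicates of all members, a median coefficient of variation of 12.1% against 4.02% for the typical member. Without replicate 1 of every group its adjusted p was 0.0552.

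Spindle proteins fell in 7 of 7 cases and had the lowest median of the groups, -0.77. The 3 degrader libraries held 69.6, 74.9 and 76.999 CPM of HMMR, a spindle assembly factor, against 115, 135 and 119 with enzalutamide, 126, 113 and 128 with the ligand and 133, 139 and 135 with vehicle. No degrader library reached the lowest of the other 9 (log2 fold change -0.88, SE 0.06, adjusted p = 2.84e-08). DLGAP5 (-0.77), GTSE1 (-0.77), NUSAP1 (-0.77), CKAP2 (-0.71) and TPX2, which activates Aurora A on the spindle (-0.63), fell along with it. ASPM, a spindle pole protein gene, had 124, 143 and 146 CPM with the degrader, 164, 198 and 204 CPM with enzalutamide, 163, 169 and 209 CPM with the ligand, and 182, 215 and 217 CPM with vehicle. Degrader libraries were below the rest, and replicate 1 was the lowest library of each group (log2 fold change -0.57, SE 0.11, adjusted p = 0.00149). Cytokinesis genes fell in 4 of 4 cases (median -0.56). ANLN, which encodes the ring protein anillin, stood at 161, 177 and 182 CPM in the 3 degrader libraries, at 245, 270.1 and 259.7 CPM with enzalutamide, at 251, 252 and 269.9 CPM with the ligand and at 259.7, 276 and 275 CPM with vehicle. The degrader libraries were far below the others (log2 fold change -0.64, SE 0.05, adjusted p = 1.6e-07). ECT2 (-0.58) and RACGAP1 (-0.54), which together place the cleavage furrow, fell as well. The 3 degrader libraries held 176, 186 and 188 CPM of PRC1, the bundler of the central spindle, against 257, 262 and 256 with enzalutamide, 245, 257 and 245 with the ligand and 256, 261 and 258 with vehicle. The degrader libraries again lay below all others (log2 fold change -0.50, SE 0.04, adjusted p = 1.22e-07).

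**Figure D2:**
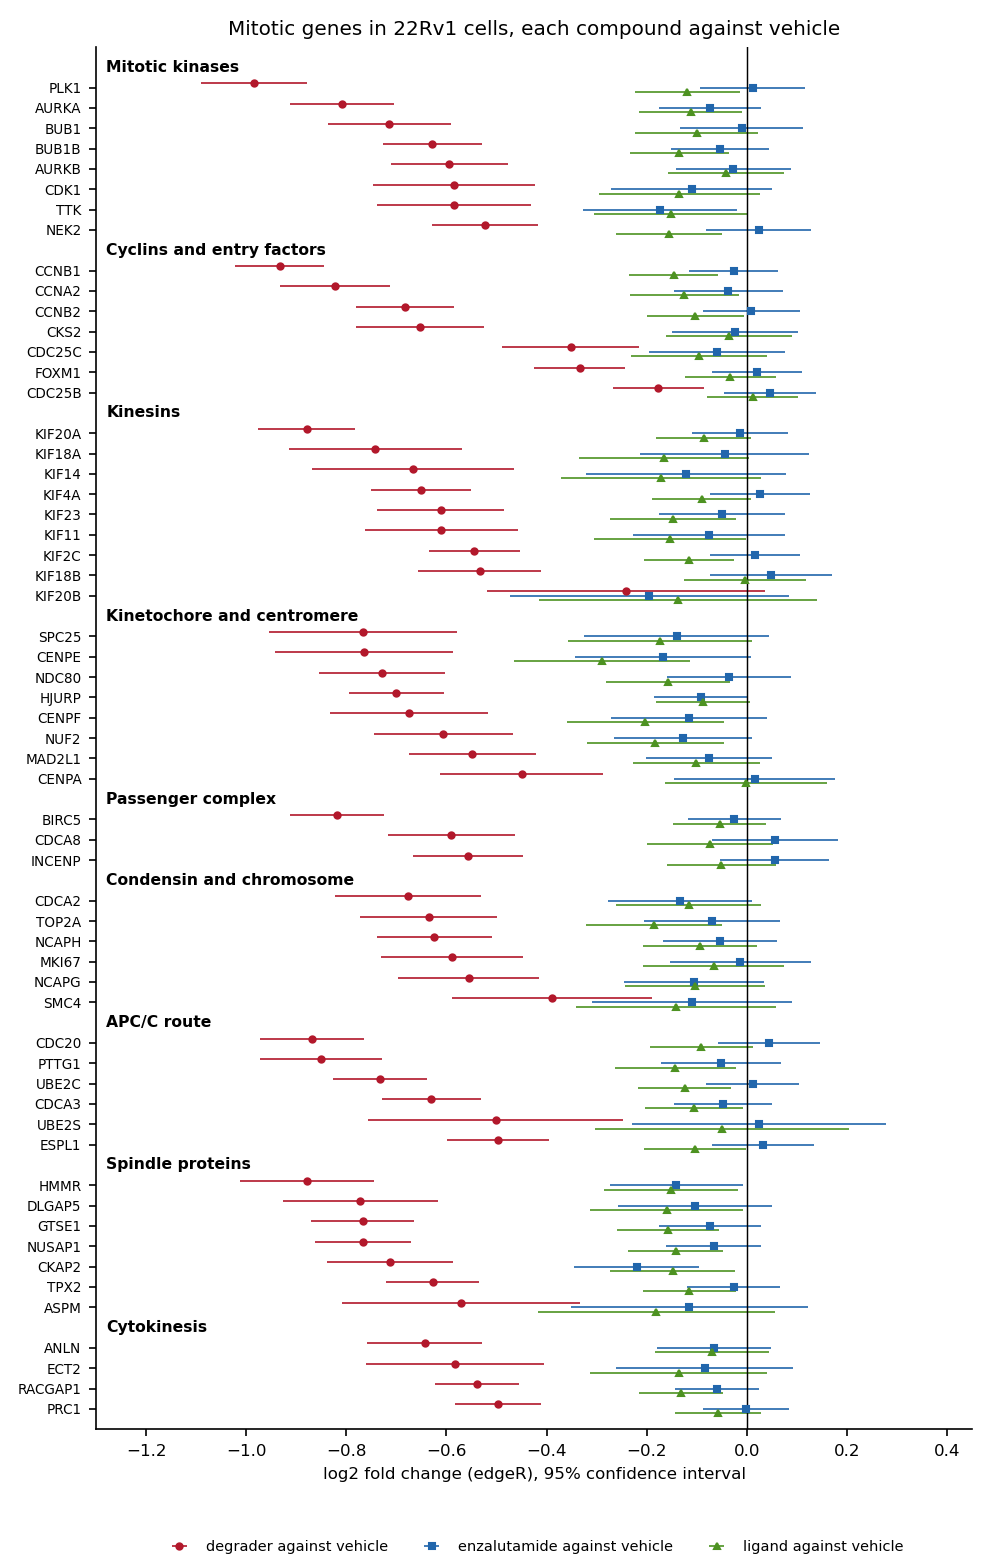
Log2 fold change with its 95% confidence interval (horizontal axis) for each of the 58 genes, by role, for degrader, enzalutamide and ligand against the same 3 vehicle libraries. Degrader points lie between -0.98 and -0.18, enzalutamide points between -0.22 and 0.06, and ligand points between -0.29 and 0.01.

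Of the 58 genes, 50 had a log2 fold change below -0.5 and 9 one below -0.8. These 9 were PLK1, CCNB1, KIF20A, HMMR, CDC20, PTTG1, CCNA2, BIRC5 and AURKA. Across the 58 genes, the fold change and the vehicle level in log2 TPM had a Pearson r of -0.31 and the fold change and the level a Spearman rho of -0.198; these genes share their libraries and are no independent replicates. Replicate 1 was the lowest library within each of the 4 groups in 11 of 58 members (19%), among them KIF20B, ASPM, CENPF, MKI67 and TPX2, and in 5.79% of all genes tested. Replicate 3 was the lowest within each group for CDC20 and UBE2S (3.45% of members) and for 4.77% of all genes. The part of this spread in the fold changes was not tested.

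The promoters of these genes were read because the binding sites of the MuvB and NF-Y factors lie there. RefSeq windows from 250 bases before to 50 bases after each annotated start (GRCh38.p14) matched 50 of the 58 genes and were searched on both strands for the cell cycle genes homology region (CHR), spelled TTTGAA or TTCGAA, and for the CCAAT box, spelled CCAAT. On the opposite strand a CCAAT box reads ATTGG and the first CHR spelling TTCAAA. A match is a description of letters, not of a bound site. Windows are shown for the 4 genes with the smallest p among those that held both motifs, and for KIF20B, the member that did not pass; they run 5′ to 3′ along the gene's strand, with CHR and CCAAT matches on either strand in capitals. They lie at chr16:23678639-23678938 for PLK1, chr1:43358731-43359030 for CDC20, chr15:41332631-41332930 for NUSAP1, chr22:46296620-46296919 for GTSE1 and chr10:89701340-89701639 for KIF20B, all on the plus strand.
PLK1: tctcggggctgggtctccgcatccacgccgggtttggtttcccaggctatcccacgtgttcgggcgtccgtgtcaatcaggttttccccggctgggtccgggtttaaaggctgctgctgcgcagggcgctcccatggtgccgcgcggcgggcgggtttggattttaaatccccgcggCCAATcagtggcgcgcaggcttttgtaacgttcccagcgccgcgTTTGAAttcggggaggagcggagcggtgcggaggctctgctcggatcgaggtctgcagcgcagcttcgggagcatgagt
CDC20: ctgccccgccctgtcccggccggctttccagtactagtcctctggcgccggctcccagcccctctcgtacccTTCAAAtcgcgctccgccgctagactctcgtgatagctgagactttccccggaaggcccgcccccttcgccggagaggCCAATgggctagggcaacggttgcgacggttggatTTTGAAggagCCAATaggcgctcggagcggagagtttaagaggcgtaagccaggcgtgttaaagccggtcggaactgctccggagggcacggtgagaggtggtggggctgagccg
NUSAP1: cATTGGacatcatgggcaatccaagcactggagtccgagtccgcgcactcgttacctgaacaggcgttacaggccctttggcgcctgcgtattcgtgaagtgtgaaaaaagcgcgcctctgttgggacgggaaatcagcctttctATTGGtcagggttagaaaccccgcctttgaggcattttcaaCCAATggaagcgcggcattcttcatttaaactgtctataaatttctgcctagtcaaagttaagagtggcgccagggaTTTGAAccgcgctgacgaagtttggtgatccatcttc
GTSE1: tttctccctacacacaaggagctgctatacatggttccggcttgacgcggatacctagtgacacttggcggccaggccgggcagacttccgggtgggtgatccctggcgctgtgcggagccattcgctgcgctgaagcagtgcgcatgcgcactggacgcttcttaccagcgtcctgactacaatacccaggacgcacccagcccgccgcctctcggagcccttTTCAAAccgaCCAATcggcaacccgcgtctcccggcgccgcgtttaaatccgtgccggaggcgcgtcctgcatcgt
KIF20B: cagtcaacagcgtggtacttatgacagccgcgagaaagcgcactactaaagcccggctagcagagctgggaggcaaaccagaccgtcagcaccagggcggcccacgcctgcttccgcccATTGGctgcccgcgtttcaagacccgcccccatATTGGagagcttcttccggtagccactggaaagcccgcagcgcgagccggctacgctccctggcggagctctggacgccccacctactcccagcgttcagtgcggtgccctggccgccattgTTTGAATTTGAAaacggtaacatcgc

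In the PLK1 window the CCAAT box began 73 bases before the start and the CHR 29 bases before it. KIF20B, which did not pass, held 2 CCAAT boxes before the start and 2 CHR matches side by side after it. Whether the motifs bear on the falls was not tested. A CHR was found for 39 of 50 members (78%) and 15.6% of the 12397 genes tested that had a window, a CCAAT box for 41 members (82%) and 42.9%, and both for 33 members (66%) and 6.61%. Of 34 S phase genes with a window, 3 held a CHR (8.82%) and 21 a CCAAT box (61.8%). The members with a match to either CHR spelling had a median log2 fold change of -0.63, and the 11 without one of -0.71. Among these 11 were CCNB1, CCNA2, KIF20A and PTTG1, all with a CCAAT box. KIF2C, CENPE and CKAP2 had a match to neither motif. Other CHR spellings and bases outside the windows were not searched, so a gene without a match may still hold a CHR. CDC25B, with the smallest fall that passed, held both.

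**Figure D3:**
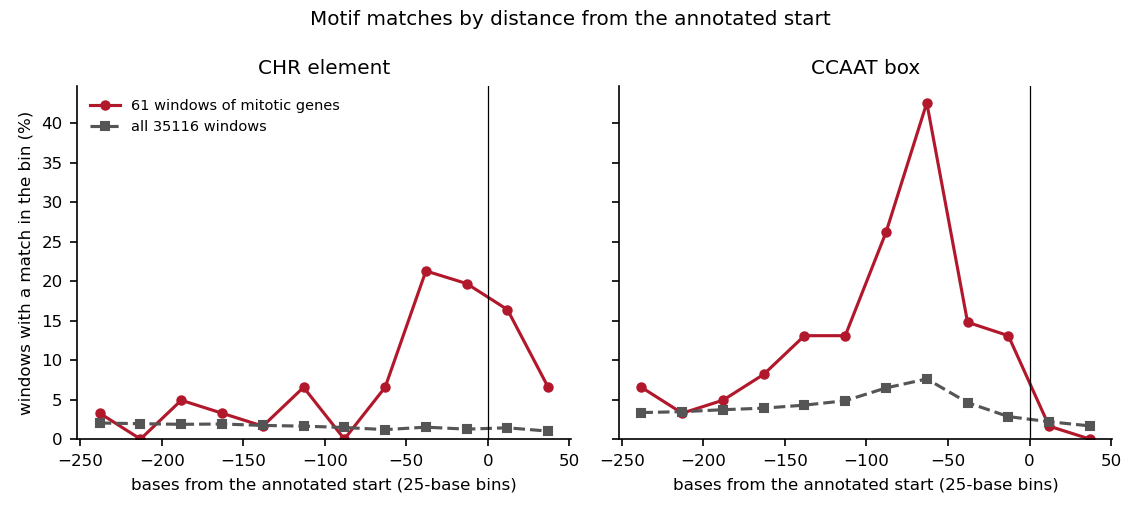
Share of promoter windows with a motif match beginning in each bin of 25 bases (vertical axis, percent) against the distance from the annotated start (horizontal axis, bases), for the 61 windows of mitotic genes and all 35116 windows of the RefSeq table. CHR matches of the mitotic genes peaked in the bin that begins 50 bases before the start, at 21.3% of windows against 1.51% of all windows, and CCAAT boxes in the bin that begins 75 bases before it, at 42.6% against 7.62%.

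Other genes of mitosis that were not among the 58 were counted from lists chosen by role, with earlier results of these data known. Over all genes tested, 16.4% were called lower and 16.4% higher. Of 32 other spindle and cytokinesis genes, 28 fell and none rose (median -0.49), including the importin gene KPNA2 (-0.78), the spindle genes SPAG5 (-0.68) and KNSTRN (-0.70). Of 33 other kinetochore and centromere genes, 24 fell (median -0.32), with ZWINT (-0.45), CENPW (-0.57) and SPC24, a partner of SPC25 (-0.54), among them. Condensin and cohesin genes fell in 10 of 15 cases (median -0.27), led by the condensin II subunit NCAPD3 (-0.60), the condensin I subunit NCAPD2 (-0.54) and CDCA5, the gene of sororin (-0.36).

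The core of the APC/C was counted apart from CDC20 and the enzymes UBE2C and UBE2S. Over all genes tested 16.4% were called higher, and in none of the lists here were rises more frequent than that. This list of 16 genes held core subunits, the inhibitor gene FBXO5 and the activator gene FZR1. Of the 16, 8 fell and 1 rose (median -0.18). With each library left out in turn, 6 to 9 of them fell and 1 rose. FBXO5, the gene of the inhibitor EMI1, was at -0.51, ANAPC15 at -0.31 and ANAPC5 at -0.23, and ANAPC16 rose by 0.23. Of 14 other regulators of mitotic entry and exit, 8 fell and 1 rose (median -0.18). Falls included the cyclin F gene CCNF (-0.71), LMNB1, the gene of lamin B1 (-0.46), and the phosphatase gene CDC25A (-0.45); the rise was that of the phosphatase gene CDC14B (0.45), and the inhibitory kinase gene WEE1 was at -0.04 and did not pass. Of 24 genes of DREAM, MuvB, E2F and NF-Y factors, 11 fell and 3 rose (median -0.17). Leaving out each library in turn gave 9 to 12 falls and 1 to 3 rises. The repressor E2F8 was at -0.64, MYBL2, the gene of B-MYB, at -0.44 and E2F2 at -0.31. RBL2, which encodes the DREAM pocket protein p130, rose by 0.26. LIN54, the MuvB subunit that binds the CHR, rose by 0.18 and TFDP2 by 0.16. Leaving out single libraries ended both calls. For LIN54 the adjusted p became 0.0896 on leaving out degrader replicate 2, 0.109 degrader replicate 3, 0.0817 vehicle replicate 1 and 0.0562 vehicle replicate 3. For TFDP2 it became 0.0553 on leaving out degrader replicate 1, 0.0756 degrader replicate 2, 0.0633 vehicle replicate 1 and 0.0682 vehicle replicate 2.

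S phase genes, which act earlier in the cell cycle, fell in 37 of 40 cases with a median of -0.34, where 16.4% of the genes tested were called lower. TYMS was at -0.64, RRM1 at -0.51 and MCM4 at -0.40. Relative to the vehicle mean, the median mitotic gene was at -0.73, -0.59 and -0.60 in degrader replicates 1, 2 and 3 on the log2 CPM scale, and the median S phase gene at -0.38, -0.31 and -0.31 in the same libraries. In each degrader library the mitotic median was the lower of the 2, and replicate 1 was the lowest for both lists. The difference between the lists was not tested.

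**Figure D4:**
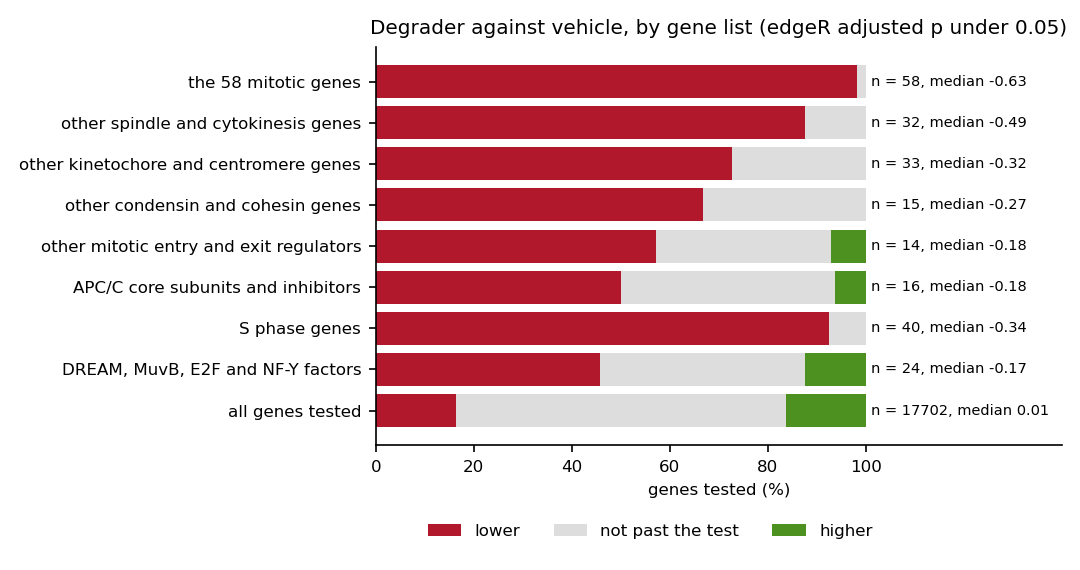
Percent of genes tested (horizontal axis) that were lower, not past the test or higher with the degrader against vehicle, for the 58 mitotic genes, 7 other lists and all genes tested, with the number of genes and the median log2 fold change beside each bar. The 58 mitotic genes had 57 lower and a median of -0.63, and the APC/C core list had 8 of 16 lower and 1 higher.

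Enzalutamide against vehicle gave the response of the same genes to a drug in clinical use. None of the 58 genes was called by edgeR, where 1.44% of the genes tested were called, 1.09% lower and 0.35% higher. Of the members, limma-voom called 0 and DESeq2 1. By edgeR, 3 members and 1749 of the 17702 genes tested had an unadjusted p under 0.05. The median log2 fold change was -0.05. With single libraries left out, the members at an unadjusted p under 0.05 numbered 1 to 9, the lowest without enzalutamide replicate 1 or 3 or vehicle replicate 2 and the highest without vehicle replicate 1, with 8 without enzalutamide replicate 2. The median ranged from -0.08 without enzalutamide replicate 2 to -0.02 without enzalutamide replicate 1. Enzalutamide libraries lay wholly below vehicle in 5 members (8.62%) and wholly above in 3 (5.17%), against 8.19% and 8.87% of the genes tested. CKAP2, a spindle protein gene, stood at 106, 118 and 121 CPM in the 3 degrader libraries, at 155, 168 and 163 CPM with enzalutamide, at 165, 163 and 183 CPM with the ligand and at 178, 195 and 193 CPM with vehicle. The enzalutamide values of CKAP2 lay below all vehicle values and the ligand values overlapped both. Its log2 fold change with enzalutamide was -0.22 (95% confidence interval -0.35 to -0.10, adjusted p = 0.0912), and it was the 1 gene that DESeq2 called (adjusted p = 0.0311). It was also the 1 member with an adjusted p under 0.05 in the authors' deposited table (0.0302). PLK1 was at 0.01 (-0.09 to 0.12), CCNB1 at -0.03 (-0.12 to 0.06) and UBE2C at 0.01 (-0.08 to 0.11), and the interval of each excluded a fall of the size seen with the degrader.

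The ligand alone was set against the same vehicle libraries. None of the 58 genes was called by edgeR, DESeq2 or limma-voom, and 26, 25 and 29 members by those tools had an unadjusted p under 0.05. By edgeR, 1297 of the 17702 genes tested had an unadjusted p under 0.05. At the adjusted threshold 0.237% of the genes tested were called, 0.0339% lower and 0.203% higher. The edgeR count of 26 was 8 without vehicle replicate 2 and 15 without ligand replicate 1, and 20 to 27 without any other single library. The median log2 fold change was -0.12, or 92.2% of the vehicle level, against 0.00 over all genes tested. The value was below 0 in 57 of 58 members, CDC25B being the other at 0.01, and in 51.4% of all genes tested. The ligand libraries lay wholly below the vehicle libraries in 28 members (48.3%) and wholly above in 0, against 5.71% and 5.61% of the genes tested. CCNB1, with the smallest p, stood at -0.15 (95% confidence interval -0.23 to -0.06, adjusted p = 0.29). CENPE, the kinetochore motor gene with the largest difference, had 41.6, 50.3 and 50.04 CPM with the degrader, 63.1, 76.8 and 74.8 CPM with enzalutamide, 64.2, 61.7 and 71.5 CPM with the ligand, and 76.6, 84.6 and 80.01 CPM with vehicle. The ligand values of CENPE lay below all vehicle values and within or below the range of the enzalutamide values (log2 fold change -0.29, -0.47 to -0.11, adjusted p = 0.294). These differences and those of the degrader were taken against the same 3 vehicle libraries. Set against enzalutamide, which shares no vehicle library, the ligand had a median of -0.06, with 52 of 58 members below 0 and 14 (24.1%) wholly below, against 6.08% of the genes tested; none lay wholly above, against 6.56%. No member was called there by edgeR or limma-voom and NEK2 was by DESeq2 (adjusted p = 0.0352). By edgeR, 10 members and 1622 of the 17702 genes tested had an unadjusted p under 0.05. At the adjusted threshold 2.04% of the genes tested were called, 0.667% lower and 1.37% higher. That count of 10 was 6 without ligand replicate 1 or enzalutamide replicate 2, and the median was -0.04 without enzalutamide replicate 2 and -0.09 without enzalutamide replicate 1.

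**Figure D5:**
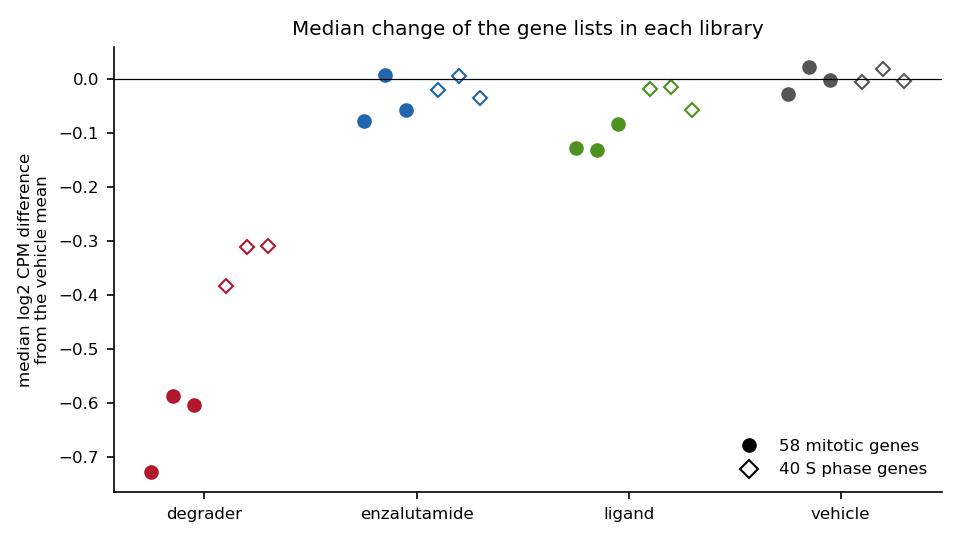
Median over the 58 mitotic genes (filled circles) and over 40 S phase genes (open diamonds) of the log2 CPM difference from the vehicle mean, for each library (points, replicates 1 to 3 from left to right) in each group. The mitotic medians lie at -0.73 to -0.59 with the degrader, -0.08 to 0.01 with enzalutamide, -0.13 to -0.08 with the ligand and -0.03 to 0.02 with vehicle.

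Set against the other compounds rather than vehicle, the degrader libraries were also low. Against enzalutamide 57 members were lower and none higher, where 16.1% of the genes tested were called lower, with a median log2 fold change of -0.58; the degrader libraries lay wholly below enzalutamide in 56 members, where 22.5% of the genes tested did. PLK1 was at -0.996, CDC20 at -0.91 and CCNB1 at -0.91. KIF20B was at -0.05 (-0.33 to 0.23, adjusted p = 0.818). SMC4 passed at -0.28 (adjusted p = 0.0323), and its adjusted p was 0.124 without degrader replicate 1, 0.0598 without degrader replicate 3, 0.144 without enzalutamide replicate 2 and 0.0938 without enzalutamide replicate 3. Against the ligand 56 members were lower and none higher, where 14.2% of the genes tested were called lower, with a median of -0.52; they lay wholly below the ligand libraries in 57 members and wholly above in none, where 18.6% and 20.1% of the genes tested did. PLK1 was at -0.87, KIF20A at -0.79 and CCNB1 at -0.79. KIF20B (-0.10, adjusted p = 0.6) and SMC4 (-0.25, adjusted p = 0.0604) did not pass. SMC4 lay near the threshold: it passed by DESeq2 (adjusted p = 0.0232), without the filter on low counts (0.0471), with the compared groups alone (0.0373), and without enzalutamide replicate 1 (0.0293) or 2 (0.0493) or vehicle replicate 1 (0.048), and it reached 0.207 without degrader replicate 1 or ligand replicate 3.

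Whether the degrader's effect equalled that of enzalutamide and the ligand added together was tested gene by gene on the log2 scale, as the degrader's fold change minus the other fold changes. The degrader's fall exceeded the sum in 50 of 58 members and fell short of it in none, with a median excess of -0.48, where 7.61% of the genes tested were called in this direction. The smallest p belonged to CCNB1 (-0.76, SE 0.06, adjusted p = 6.23e-07). PLK1 (-0.88), KIF20A (-0.78), CDC20 (-0.82) and BIRC5 (-0.74) came next. TTK, CDC25C, KIF20B, KIF14, CENPE, SMC4, UBE2S and ASPM did not pass. Of these, KIF14 (adjusted p = 0.0309) and UBE2S (0.00884) passed by DESeq2. Without enzalutamide replicate 1, CENPE (0.03) and KIF14 (0.019) passed by edgeR, and UBE2S did without degrader replicate 1 (0.0441) or ligand replicate 3 (0.0143). In the other direction, CDK1 and ECT2 each lost their call in 9 of the 12 fits that left out 1 library. NUF2 and CENPF did so in 6 each, SPC25 in 4, and KIF11 and NCAPG in 1 each. Without replicate 1 in every group 44 members passed. CDC25B (adjusted p = 0.0586) and MAD2L1 (0.112) were among those that lost their call there by edgeR. CENPE, for example, was at -0.77 with the degrader, -0.17 with enzalutamide and -0.29 with the ligand, which left -0.31 (-0.56 to -0.06, adjusted p = 0.0912).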

How the data were processed

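Polyadenylated RNA of 22Rv1 cells was sequenced in 12 libraries, 3 in each of 4 groups, from a stranded mRNA kit, per the labels' protocols. HISAT2, StringTie and the GRCh37 build are named, per the submitters' processing notes; the tools' versions are not given in the sources used here. The authors deposited raw read counts per gene and TPM values, which they scaled to transcript length, per the file headers; every gene listed has at least 1 read in each library. The deposited score column is a signed fold change against vehicle, and the deposited p-value column is Benjamini-Hochberg adjusted, per the file headers. The table has 24 further per-sample value columns, which were not used.

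Genes were kept by edgeR filterByExpr (minimum count 10, total 15), which left 17702 of 18668. Counts were scaled by TMM. The quasi-likelihood fit (robust option) took in all 12 libraries and had the 4 groups as its sole factor. Adjusted p-values are Benjamini-Hochberg over all genes tested, and genes were called under 0.05. Levels are edgeR CPM, apart from the summed marker levels, which used library totals without TMM. Confidence intervals are 95% and cover the spread between libraries, not counting error alone. Replicates of a group differed by more than sampling noise (chi-square per degree of freedom 5.56 to 22.8). Tested on counts simulated for degrader against vehicle (17619 genes), the fit called 99 of 100 genes changed 2-fold and 86 of 100 changed 1.5-fold. The changed genes were drawn from those above a minimum read count and were few among the genes simulated. No effect of replicate number was simulated, so these rates do not carry over to every gene of the data. Alternatives were other scalings (relative log expression, upper quartile), DESeq2, limma-voom, other filters on low counts, the compared groups alone, a replicate block, and libraries left out.

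The 58 genes, the lists and the rule for named genes were chosen with earlier results of these data known. Per-library values are given for the largest and smallest change in each role group and for CKAP2 and CENPE, which were added after their values were seen. Of the other lists, the 3 genes with the smallest p and up to 3 called against the majority are named, and WEE1 was added after its value was seen. The list of markers of other cell types was left out of this rule. EPCAM, KRT8, KRT18 and SYP were named outside it. A further luminal marker is not reported here. Promoter windows and symbols come from RefSeq on GRCh38.p14, and no coordinates were converted between builds. The software was edgeR 4.0.16 under R 4.3.3, with DESeq2 1.42.0 and limma 3.58.1 for alternatives, and Python 3.11.15.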

Additional observations from a re-analysis of the deposited data

How the results depend on the processing

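The count of members lower with the degrader against vehicle was 57 to 58 with each library left out, with a median log2 fold change of -0.66 to -0.60, and 56 without replicate 1 in every group. The same count was 56 to 57 against enzalutamide, 55 to 57 against the ligand and 43 to 52 beyond the sum. Of the single gene values in these comparisons, 3 reversed against enzalutamide and 1 beyond the sum, all of KIF20B. Against enzalutamide they were 0.0076 without replicate 1 in every group, and with each library left out -0.1193 to 0.0536; beyond the sum the range was -0.0638 to 0.2387, below 0 without vehicle replicate 2; the cause was not tested. The count lower with enzalutamide against vehicle was 1 by DESeq2, 1 with the groups compared alone, 1 with the replicate block, and 0 to 1 with a library left out (1 without ligand replicate 3), the gene being CKAP2 each time. The count lower with the ligand against enzalutamide was 1 by DESeq2 (NEK2), and 0 to 1 with a library left out (PLK1 without ligand replicate 2). The labels do not say that replicate numbers mark pairs. Deviations from the group mean of same-numbered libraries of different groups correlated at -0.268 to 0.605. Their median was 0.31, with 17 of 18 pairs above 0 and 13 above 0.1. Those of different numbers had a median of -0.222, which is no separate evidence because deviations within a group sum to 0. The same-numbered values hint at sharing by number, but not in every pair, so the block is an alternative. With the number as a replicate block, 3 members were lower with the ligand against vehicle (CENPE, CENPF and TOP2A), 3 with the ligand against enzalutamide (NEK2, UBE2C and CDC20), 55 beyond the sum (TTK, KIF14, CENPE, UBE2S and ASPM added), 57 with the degrader against the ligand (SMC4 added, adjusted p = 0.000945), and 58 with the degrader against vehicle, KIF20B included (adjusted p = 0.037). With the block, members at an unadjusted p under 0.05 by edgeR numbered 41 for the ligand and 13 for enzalutamide, each against vehicle. Without the block they numbered 26 and 3. The share of all genes called with the block is not given here, so a general gain in calls cannot be told apart. With 3 libraries a group, the spread between libraries sets the precision.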
